A study of Mus musculus with 11 samples.

Results

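The 10 genes described here, Hhex, Lyl1, Lmo2, Mef2c, Bcl11a, Spi1, Kit, Flt3, Erg and Gata2, are known regulators of early thymic progenitors, the first cells of the T lineage in the thymus. They were taken as a named list, and all 10 were found among the 57186 gene entries of the count tables. RNA was sequenced from 3 kinds of sorted cells of untreated mice aged 14 days. These were 5 libraries of ZsGreen-negative and 3 of ZsGreen-positive lung ILC2 (group 2 innate lymphoid cells), which reside in tissue and make type 2 cytokines, and 3 libraries of DN3 cells, T cell precursors that rearrange the T cell receptor beta gene, from the thymus. All mice, those of the ZsGreen-negative and DN3 cells included, carried the genotype Cd3giCreRosa26stopZsGreen.

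In these mice Cre is driven by Cd3g, and it switches on ZsGreen for good in the cell and its progeny. A ZsGreen-positive ILC2 therefore has a history of Cd3g expression, while one without ZsGreen is not thereby free of Cd3g RNA. The Cd3g level was 35.2 ± 4.32 CPM (SD, n = 5) in ZsGreen-negative cells and 151 ± 16.5 CPM (SD, n = 3) in cells with ZsGreen, where CPM are counts per 1000000 counts of a library, scaled between libraries. The labels do not say whether libraries came from separate or pooled mice, so the spread behind each p-value may be technical. As a check of the labels, Il1rl1, the IL-33 receptor of ILC2, stood at 3089 CPM in lung libraries and at 0 counts in DN3. Rag1, needed for receptor gene rearrangement, stood at 1261 CPM in DN3 and 0.204 CPM in lung libraries. Of 14 ILC2 and ILC progenitor genes, 12 were called lower and 2 higher in DN3 than all lung ILC2 (edgeR BH-adjusted p under 0.05). The 14 markers of DN3 and other T cells summed to 5053 to 5218 CPM in DN3 and 908 to 1147 CPM in lung libraries. The 14 lung epithelial and stromal markers summed to 349 to 2504 CPM in lung libraries, so these checks do not show pure sorts.

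Library totals ranged from 4495260 to 17627469 counts, so a single count stood for 0.0567 to 0.222 CPM before scaling. The labels give a date as batch. Lung libraries were of 2 September 2024, apart from ZsGreen-negative library 5 and ZsGreen-positive library 3 of 8 April 2025, and all DN3 libraries were of 17 October 2024. Wherever DN3 is compared, tissue, cell type and batch cannot be told apart. In such sorted bulk samples, fewer cells that express a gene and less RNA per cell cannot be told apart either.

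Early thymic progenitors enter the thymus with a programme shared with blood stem and progenitor cells. PU.1 (encoded by Spi1), Erg, Bcl11a, Mef2c, Hhex, Gata2 and the Lmo2-Lyl1 complex are transcription regulators of that programme, and Kit and Flt3 are the receptors through which such cells sense stem cell factor and FLT3 ligand. Notch signalling and Bcl11b then carry the cells to T lineage commitment, and much of the programme is turned down around the DN3 stage. Kit, Gata2 and Lmo2 also act in other haematopoietic lineages, Kit and Gata2 in mast cells among them, and Erg, Lmo2 and Mef2c act in endothelium.

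RefSeq promoter entries (GRCm38.p6, another build than the GRCm39 named for the count tables) were at hand for 8 of the 10 genes, with 14 start sites, and for neither Lmo2 nor Spi1. The 250 bases before each start were searched on both strands for 4 short motifs of factor families to which the regulators or their partners belong. An ETS core of the kind that PU.1 and Erg bind, GGAAG, lay before 11 of the 14 starts, against 64.1% of 32851 promoters in the table. The 14 are not independent, since the windows of the 2 Kit starts overlap and Mef2c and Erg have 3 starts each. A GATA motif, AGATAA, lay before 1 of 14 starts (9.99% of all promoters), the third listed start of Erg. An E-box, CAGCTG, was found before 0 of 14 starts, against 13% of all promoters. For the RUNX motif, spelled TGTGGT, the count was likewise 0 of 14, against 14.0% of all promoters. Matches of different motifs can share end bases, and a match is a description of letters, not a site of binding.

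The 150 bases next to the start are shown for 2 genes that were higher in DN3 than in ILC2 (Erg, its first listed start, and Lyl1) and 2 that were lower (Kit, its first listed start, and Hhex). They lie at chr16:95586594-95586743 (minus strand) for Erg, chr8:84701307-84701456 (plus strand) for Lyl1, chr5:75574837-75574986 (plus strand) for Kit and chr19:37434691-37434840 (plus strand) for Hhex. Capitals mark a motif match. One ETS core was found in the window of Lyl1, on the minus strand, and one in that of Hhex, and none of the 4 motifs in those of Erg and Kit.
Erg: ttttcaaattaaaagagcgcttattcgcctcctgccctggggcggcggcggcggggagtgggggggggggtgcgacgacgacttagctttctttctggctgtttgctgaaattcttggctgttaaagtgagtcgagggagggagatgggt
Lyl1: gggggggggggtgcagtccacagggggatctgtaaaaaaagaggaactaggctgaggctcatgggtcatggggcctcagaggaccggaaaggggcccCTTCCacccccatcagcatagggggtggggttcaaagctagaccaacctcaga
Kit: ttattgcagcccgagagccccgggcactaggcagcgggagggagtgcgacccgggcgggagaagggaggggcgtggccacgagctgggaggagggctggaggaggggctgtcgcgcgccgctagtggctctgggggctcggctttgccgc
Hhex: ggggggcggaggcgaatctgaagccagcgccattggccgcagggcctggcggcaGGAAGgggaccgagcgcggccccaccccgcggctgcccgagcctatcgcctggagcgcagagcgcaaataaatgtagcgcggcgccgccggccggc

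The first comparison asked how DN3 cells differ from lung ILC2 in these genes. DN3 held more Erg, Bcl11a, Lyl1 and Mef2c RNA, by 15.5, 12.3, 4.79 and 3.26 times the mean of the 8 lung libraries. They held less Kit, Lmo2 and Hhex RNA, by 12.9, 24.0 and 2.29 times, and a single count of Gata2. Spi1 differed by less than its spread, and Flt3 was near the limit of counting in every group. Of the 10 genes, 9 passed the filter on low counts, and 4 were called higher and 4 lower at an edgeR BH-adjusted p under 0.05, where 78.8% of all genes tested were called.

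The background of that count was high. Of all 15132 genes tested, 36.7% were called higher and 42.1% lower in DN3 than in all lung ILC2. In the same fit 35.5% were called higher and 41.2% lower (76.7% in all) than in ZsGreen-negative ILC2, and 34.8% higher and 40.3% lower (75.1% in all) than in ZsGreen-positive ILC2. Their share of calls is therefore no result about these genes. Lyl1 and Bcl11a passed the filter only with DN3 in the fit, so both had to come out high there. The comparisons with the ZsGreen-negative and ZsGreen-positive group share the DN3 libraries, and they gave the same 4 genes higher and the same 4 lower.

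**Figure D1:**
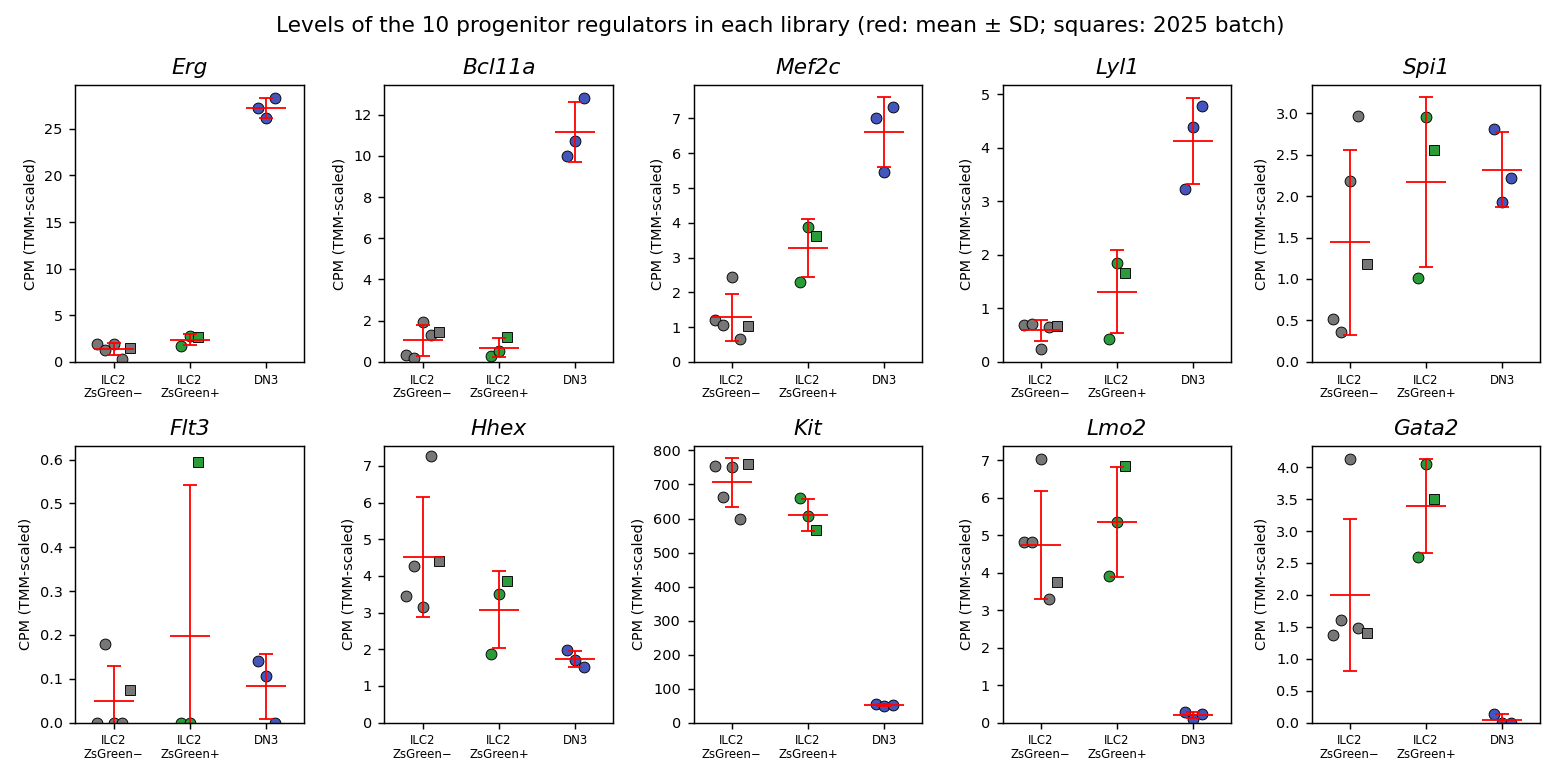
Scaled CPM (vertical axes, linear, each from 0) of the 10 genes in the 5 ZsGreen-negative ILC2, 3 ZsGreen-positive ILC2 and 3 DN3 libraries, with group means and SD in red and libraries of the 2025 batch as squares; error bars are not drawn below 0. Erg, Bcl11a, Mef2c and Lyl1 lie higher in every DN3 library than in any lung library, Kit, Lmo2 and Gata2 lie lower, and Spi1, Flt3 and Hhex overlap.

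Among the receptors, Kit was the most abundant of the 10 transcripts in ILC2, per kilobase of exon too. It stood at 753, 664, 753, 599 and 761 CPM in ZsGreen-negative libraries 1 to 5, at 661, 607 and 567 CPM in ZsGreen-positive libraries 1 to 3, and at 55.6, 48.1 and 52.4 CPM in DN3 libraries 1 to 3. Every lung library lay far above every DN3 library, and the DN3 level still rested on 396 to 450 counts per library. As DN3 minus all lung ILC2, the log2 fold change was -3.68 ± 0.11 (SE; edgeR quasi-likelihood, BH-adjusted p = 3.67e-18). Against the ZsGreen-negative group alone it was -3.76 ± 0.11 (edgeR BH-adjusted p = 5.27e-18), and against the ZsGreen-positive group -3.55 ± 0.12 (edgeR BH-adjusted p = 3.03e-17).

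Mast cells are another rich source of Kit in lung. Of the 13 mast cell and basophil markers, Mcpt4, Tpsb2, Tpsab1 and Mrgprb1, granule proteases and a receptor of mature mast cells, had 0 counts in all 11 libraries. Cpa3, a protease of mast cells that progenitors also express, was present at 172 ± 60.2 CPM in lung libraries and 24.7 ± 0.304 CPM in DN3. Hdc stood at 31.2 ± 10.1 and 0.913 ± 0.0628 CPM, and Mitf at 9.46 ± 2.24 and 1.21 ± 0.246 CPM. Cd200r3 had 217 counts over the lung libraries and 0 in DN3. All 4 tested markers of the list were called lower in DN3 than in all lung ILC2, beside 42.1% of all genes. Their part in the lung level of Kit was not tested. The summed level of the 13 markers ran from 177 to 293 CPM in ZsGreen-negative, 121 to 165 CPM in ZsGreen-positive and 26.6 to 27.1 CPM in DN3 libraries.

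Flt3 had 2 counts over the 5 ZsGreen-negative libraries, 10 over the 3 ZsGreen-positive libraries and 2 over the 3 DN3 libraries, and was too low to test. All 10 counts of the ZsGreen-positive group came from library 3, the deepest, at 0.595 CPM, and libraries 1 and 2 had 0. The ratio of ZsGreen-positive to ZsGreen-negative counts was 6.17 (95% interval 1.31 to 57.9, counting error only), and it rests on that 1 library. Between all lung ILC2 and DN3 the ratio was 1.81 (0.403 to 16.7), so a difference was not detectable at this depth.

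The RNAs of both ligands were detected in the lung ILC2 libraries and were low or at 0 counts in DN3. Which cells in the lung samples held them was not tested. Kitl, stem cell factor, stood at 11.5 ± 2.90 CPM in lung libraries and at 0 counts in DN3, at least 69.3-fold lower by a floor of 3 counts over the group. Flt3l, FLT3 ligand, fell from 123 ± 22.2 CPM to 5.59 ± 1.09 CPM in DN3, a log2 fold change of -4.44 ± 0.19 (edgeR BH-adjusted p = 4.36e-13). Csf1r, a receptor related to Kit and Flt3, fell from 3.64 ± 2.97 CPM in lung to 0.196 ± 0.0489 CPM in DN3 (-3.90 ± 0.82, edgeR BH-adjusted p = 0.000403). Csf1r is also a macrophage marker, and the 24 myeloid markers summed to 86.5 to 465 CPM over the lung libraries and to 19.3 to 20.9 CPM in DN3. Their part in the lung values of Csf1r was not tested.

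Erg and Spi1 encode ETS factors, and only Erg differed beyond its spread. Erg stood at 1.89, 1.25, 1.94, 0.330 and 1.47 CPM in ZsGreen-negative libraries 1 to 5, at 1.73, 2.76 and 2.68 CPM in ZsGreen-positive libraries 1 to 3, and at 27.3, 26.1 and 28.3 CPM in DN3 libraries 1 to 3. Every DN3 library held far more than any lung library, and the DN3 libraries lay close together. The log2 fold change was 4.00 ± 0.20 against all lung ILC2 (SE; edgeR BH-adjusted p = 3.19e-14), 4.31 ± 0.24 against ZsGreen-negative (edgeR BH-adjusted p = 3.63e-13) and 3.48 ± 0.26 against ZsGreen-positive ILC2 (edgeR BH-adjusted p = 5.68e-11).

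Erg is also an endothelial factor. Of the 17 endothelial markers, all tested, 14 were called lower in DN3 than across lung ILC2 and 1, Pecam1, was called higher. Tie1, Emcn, Sox17 and Sox18 had 0 counts in all 3 DN3 libraries, and Cldn5, Cdh5, Kdr and Ptprb had 1 count each over the group. The 17 endothelial markers summed to 156 to 171 CPM in DN3 and 282 to 432 CPM over the lung libraries. Pecam1 stood at 99.98 ± 8.43 CPM in DN3 and 59.0 ± 7.81 CPM in lung, Eng at 35.7 ± 0.555 and 35.3 ± 5.96 CPM, and Calcrl at 20.8 ± 1.24 and 175 ± 21.8 CPM. Fli1, the closest relative of Erg, fell in DN3, from 160 ± 10.7 to 45.2 ± 3.47 CPM (log2 fold change -1.82 ± 0.09, edgeR BH-adjusted p = 1.07e-14). Per kilobase of exon Erg stood at 7.86 ± 0.312 CPM and Fli1 at 13 ± 0.994 CPM in DN3, against 0.507 ± 0.226 and 46.0 ± 3.06 CPM in lung ILC2.

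Spi1 stood at 0.516, 0.357, 2.19, 2.97 and 1.18 CPM in ZsGreen-negative libraries 1 to 5, at 1.01, 2.95 and 2.56 CPM in ZsGreen-positive libraries 1 to 3, and at 2.81, 1.93 and 2.21 CPM in DN3 libraries 1 to 3. The lung libraries spanned the DN3 range on both sides, and no library held more than 43 counts. The log2 fold change against all lung ILC2 was 0.47 ± 0.44 (edgeR BH-adjusted p = 0.329). It was 0.71 ± 0.49 against ZsGreen-negative (edgeR BH-adjusted p = 0.192) and 0.072 ± 0.51 against ZsGreen-positive ILC2 (edgeR BH-adjusted p = 0.905). Spi1 is a defining myeloid gene, and of the 14 myeloid markers tested 11 were called lower and 1 higher in DN3, and their part in the lung level of Spi1 was not tested in this comparison. Spib, the closest relative of Spi1, rose from 5.955 ± 2.02 CPM in lung ILC2 to 59.9 ± 3.43 CPM in DN3 (log2 fold change 3.33 ± 0.19, edgeR BH-adjusted p = 2.77e-11).

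Lmo2 and Lyl1 are partners in a DNA-binding complex, Lmo2 as the bridging LIM protein and Lyl1 as the basic helix-loop-helix factor, and they moved in opposite directions. Lmo2 stood at 4.81, 4.82, 7.04, 3.30 and 3.75 CPM in ZsGreen-negative libraries 1 to 5, at 3.90, 5.34 and 6.84 CPM in ZsGreen-positive libraries 1 to 3, and at 0.281, 0.107 and 0.233 CPM in DN3 libraries 1 to 3. In DN3 these were 2, 1 and 2 counts, so the gene was near the limit of counting there and above it in every lung library. DN3 differed from all lung ILC2 by a log2 fold change of -4.52 ± 0.46 (edgeR BH-adjusted p = 7.77e-09), -4.42 ± 0.48 against ZsGreen-negative (edgeR BH-adjusted p = 2.49e-08) and -4.67 ± 0.49 against ZsGreen-positive ILC2 (edgeR BH-adjusted p = 1.65e-08).

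Lyl1 stood at 0.688, 0.713, 0.243, 0.660 and 0.662 CPM in ZsGreen-negative libraries 1 to 5, at 0.433, 1.84 and 1.67 CPM in ZsGreen-positive libraries 1 to 3, and at 3.23, 4.39 and 4.78 CPM in DN3 libraries 1 to 3. All DN3 libraries lay above all lung libraries, at 23 to 41 counts against 1 to 28. Lyl1 passed the filter only with DN3 in the fit, so its calls as higher were fixed by that. The log2 fold change was 2.30 ± 0.35 against all lung ILC2 (edgeR BH-adjusted p = 3.35e-06), 2.72 ± 0.42 against ZsGreen-negative (edgeR BH-adjusted p = 4.06e-06) and 1.61 ± 0.42 against ZsGreen-positive ILC2 (edgeR BH-adjusted p = 0.00159). The annotation at hand (GENCODE M21) has 4 exon bases of Lyl1 under the opposite gene Nfix, which had 1294, 930 and 1105 counts in the ZsGreen-negative, ZsGreen-positive and DN3 groups. Whether counting used the strand is not given in the sources used here.

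Some partners and relatives differed, and others did not. Ldb2 had 0 counts in DN3 and 150 over the lung libraries, at least 15.1-fold lower by the same floor. Tal2 had 1 and 11 counts, a ratio of lung to DN3 of 3.32 (interval 0.483 to 143, counting error only). A difference of Tal2 was thus not detectable at this depth. Ldb1, which joins such complexes, stood at 395 ± 25.6 CPM in lung ILC2 and 329 ± 16.4 CPM in DN3 (log2 fold change -0.27 ± 0.08, edgeR BH-adjusted p = 0.00341), a difference that turned to 0.11 ± 0.08 with no scaling factor (edgeR BH-adjusted p = 0.199) and was not called with upper-quartile scaling (edgeR BH-adjusted p = 0.0558). Lmo4, a relative of Lmo2, was abundant in ILC2 at 465.8 ± 131 CPM and fell to 27.2 ± 2.17 CPM in DN3 (log2 fold change -4.06 ± 0.14, edgeR BH-adjusted p = 2.31e-16). Tal1, the relative of Lyl1, was low in both, at 1.13 ± 0.820 and 0.95 ± 0.374 CPM, and was not called (log2 fold change -0.022 ± 0.58, edgeR BH-adjusted p = 0.974, and above 0 under each other scaling). The E proteins that pair with Lyl1 rose: Tcf12 went from 155 ± 14.8 to 411 ± 20.2 CPM (log2 fold change 1.41 ± 0.08, edgeR BH-adjusted p = 1.66e-13), and Tcf3 from 105 ± 13.1 to 306 ± 2.92 CPM (1.53 ± 0.09, edgeR BH-adjusted p = 3.03e-13).

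Gata2, a stem cell and mast cell factor, stood at 1.38, 1.61, 4.13, 1.49 and 1.40 CPM in ZsGreen-negative libraries 1 to 5 and at 2.60, 4.05 and 3.51 CPM in ZsGreen-positive libraries 1 to 3. DN3 had 1 count in library 1 and 0 in libraries 2 and 3, against 161 counts over the lung libraries. The ratio of lung to DN3 was 48.6 (95% interval 8.60 to 1931, counting error only), and edgeR called the gene lower (BH-adjusted p = 1.30e-06). Gata3, the GATA factor of ILC2 and T cells, fell from 978 ± 116 CPM in lung ILC2 to 84.0 ± 2.23 CPM in DN3 (log2 fold change -3.54 ± 0.12, edgeR BH-adjusted p = 1.51e-17). Gata1, known from red cells and megakaryocytes, stood at 0.925 ± 0.363 CPM in lung and 4.88 ± 0.410 CPM in DN3; it passed the filter only with DN3 in the fit, so its call as higher was fixed by that. Lung endothelial and epithelial and stromal markers were also lower in DN3: 14 of the 17 endothelial markers and 11 of 12 tested epithelial and stromal markers were called lower, and the latter list summed to 42.6 to 50.02 CPM in DN3 and 349 to 2504 CPM over the lung libraries. Their part in the lower Gata2, Lmo2 and Kitl levels of DN3 was not tested.

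**Figure D2:**
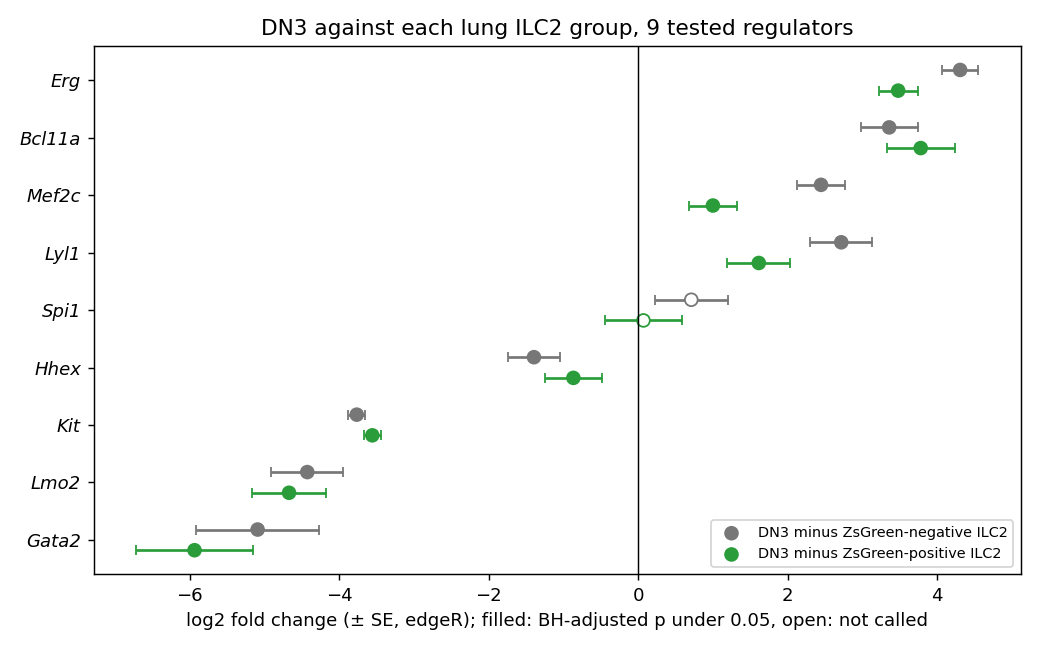
Log2 fold changes (horizontal axis, DN3 minus lung ILC2, bars are ± SE) of the 9 tested genes against ZsGreen-negative (grey) and ZsGreen-positive (green) ILC2, filled where the edgeR BH-adjusted p was under 0.05. Erg reaches 4.31 and 3.48, Spi1 lies nearest 0 with open circles, and Kit, Lmo2 and Gata2 lie below -3. The 2 colours share the DN3 libraries, and Lyl1 and Bcl11a passed the filter only with DN3 in the fit.

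Bcl11a encodes a zinc finger repressor of progenitors and B cells. It stood at 0.344, 0.178, 1.94, 1.32 and 1.47 CPM in ZsGreen-negative libraries 1 to 5, at 0.289, 0.553 and 1.19 CPM in ZsGreen-positive libraries 1 to 3, and at 9.98, 10.7 and 12.8 CPM in DN3 libraries 1 to 3. The lung values were spread over a wide range at 1 to 20 counts a library, and all lay well below DN3. Bcl11a passed the filter only with DN3 in the fit, so its calls as higher were fixed by that. DN3 differed from all lung ILC2 by a log2 fold change of 3.52 ± 0.33 (edgeR BH-adjusted p = 2.34e-09), 3.36 ± 0.38 against ZsGreen-negative (edgeR BH-adjusted p = 6.19e-08) and 3.78 ± 0.45 against ZsGreen-positive ILC2 (edgeR BH-adjusted p = 1.64e-07).

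B cell markers were mixed in DN3. Of 11 listed, 7 were tested, 3 were called higher and 4 lower than in all lung ILC2, and Ms4a1, Pax5 and Fcmr had 0 counts. Blk, among the 3, passed the filter only with DN3 in the fit, so its call as higher was fixed by that. They summed to 188 to 196 CPM in DN3 and 96.7 to 178 CPM over the lung libraries, and their part in the Bcl11a level of DN3, 11.2 ± 1.47 CPM, was not tested. An antisense gene, 4930538E20Rik, shares 316 exon bases with Bcl11a in GENCODE M21 and had 0 counts in all libraries. Bcl11b, the relative that marks T lineage commitment and that ILC2 also need, rose from 394 ± 32.5 to 757 ± 23.6 CPM (log2 fold change 0.94 ± 0.08, edgeR BH-adjusted p = 2.77e-10). In both kinds of cells it far exceeded Bcl11a: per kilobase of exon Bcl11b stood at 93.3 ± 2.90 and Bcl11a at 0.848 ± 0.112 CPM in DN3.

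Mef2c, a MADS-box factor of lymphoid and myeloid progenitors, stood at 1.20, 1.07, 2.43, 0.660 and 1.03 CPM in ZsGreen-negative libraries 1 to 5, at 2.31, 3.87 and 3.63 CPM in ZsGreen-positive libraries 1 to 3, and at 7.03, 5.46 and 7.34 CPM in DN3 libraries 1 to 3. DN3 lay above both lung groups, which themselves overlapped only between ZsGreen-negative library 3 and ZsGreen-positive library 1. The log2 fold change was 1.91 ± 0.27 against all lung ILC2 (edgeR BH-adjusted p = 1.61e-06), 2.45 ± 0.32 against ZsGreen-negative (edgeR BH-adjusted p = 5.47e-07) and 1.00 ± 0.32 against ZsGreen-positive ILC2 (edgeR BH-adjusted p = 0.00804). The relatives Mef2a and Mef2d were more abundant per kilobase of exon, at 7.36 and 31.8 CPM in lung ILC2 against 0.129 for Mef2c. Mef2a fell from 108 ± 10.3 to 53.8 ± 1.23 CPM (log2 fold change -1.001 ± 0.08, edgeR BH-adjusted p = 3.39e-10) and Mef2d rose from 190.1 ± 18.3 to 249 ± 11.8 CPM (0.39 ± 0.08, edgeR BH-adjusted p = 0.000191).

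Hhex, a homeobox factor of early lymphoid progenitors, stood at 3.44, 4.28, 3.16, 7.26 and 4.41 CPM in ZsGreen-negative libraries 1 to 5, at 1.88, 3.50 and 3.87 CPM in ZsGreen-positive libraries 1 to 3, and at 1.97, 1.71 and 1.51 CPM in DN3 libraries 1 to 3. DN3 lay below every ZsGreen-negative library, while ZsGreen-positive library 1 fell within the DN3 range. DN3 differed from all lung ILC2 by a log2 fold change of -1.19 ± 0.32 (edgeR BH-adjusted p = 0.00203) and -1.39 ± 0.34 against ZsGreen-negative ILC2 (edgeR BH-adjusted p = 0.000931). Against ZsGreen-positive ILC2 it was -0.87 ± 0.38 (edgeR BH-adjusted p = 0.0428), a call that ended with no scaling factor (edgeR BH-adjusted p = 0.214), upper-quartile scaling (0.0702), DESeq2 (BH-adjusted p = 0.0920) or the 2025 lung batch as a term (edgeR BH-adjusted p = 0.0598), and when any 1 of ZsGreen-negative library 5, ZsGreen-positive libraries 2 and 3 or the 3 DN3 libraries was left out.

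Complete separation of the libraries followed the calls closely. Of the 9 tested genes, 4 lay higher in all DN3 than in all lung libraries and 3 lay lower. The shares of all genes tested were 32.7% and 36.7% (69.3% in either direction). Lyl1 and Bcl11a, among the 4, passed the filter only with DN3 in the fit, so their separation adds nothing to their calls. Against the ZsGreen-negative group alone these were 4 and 4 genes (34.7% and 39.2% of all genes, 73.9% in either direction), and against the ZsGreen-positive group 4 and 3 genes (36.8% and 41.3%, 78.2% in either direction). Without a scaling factor the median log2 fold change of all genes against all lung ILC2 moved by 0.37, from -0.094 to 0.28, and with upper-quartile scaling by 0.10. All 8 called genes kept their direction under each scaling.

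Levels of different genes can be compared only per exon length. In lung ILC2 Kit led with 75.3 ± 8.66 CPM per kilobase of exon (SD over 8 libraries), followed by Lmo2 at 2.30 ± 0.639. Hhex (0.786 ± 0.305), Spi1 (0.636 ± 0.399), Erg (0.507 ± 0.226), Lyl1 (0.480 ± 0.319) and Gata2 (0.467 ± 0.226) came next on that scale and did not differ from their neighbours beyond their spread. Mef2c (0.129 ± 0.0785), Bcl11a (0.0691 ± 0.0497) and Flt3 (0.0171 ± 0.0336) were lowest.

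In DN3 the order was another one. Erg led at 7.86 ± 0.312 CPM per kilobase of exon (SD, n = 3), above Kit at 5.84 ± 0.424 and Lyl1 at 2.30 ± 0.447. Spi1 (0.860 ± 0.167) and Bcl11a (0.848 ± 0.112) lay within each other's spread. Mef2c (0.421 ± 0.0639) and Hhex (0.343 ± 0.0449) came next. Lmo2 (0.0956 ± 0.0415), Flt3 (0.0134 ± 0.0119) and Gata2 (0.00868 ± 0.0150) were the lowest, and the last of these rests on 1 count.

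**Figure D3:**
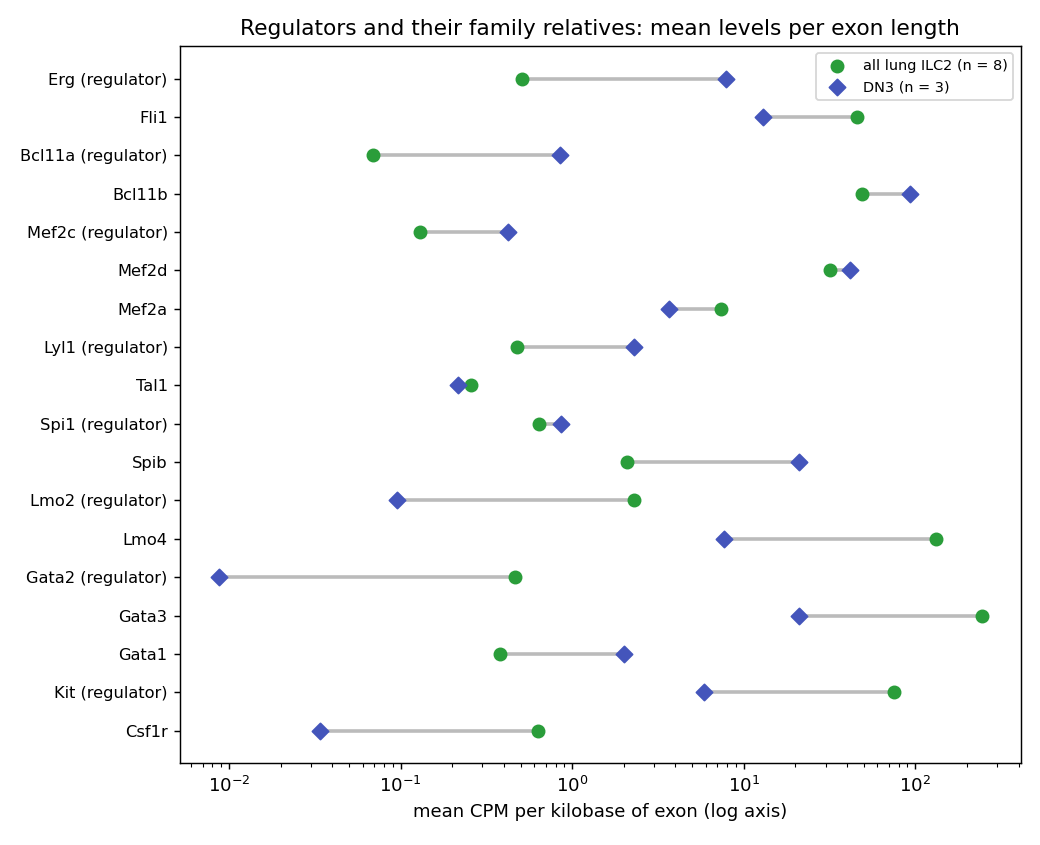
Mean CPM per kilobase of exon (horizontal log axis) of the regulators and their family relatives in all lung ILC2 (green circles, n = 8) and DN3 (blue diamonds, n = 3), with a grey line joining the 2 means of a gene; no error bars are drawn. Fli1, Bcl11b, both Mef2 relatives, Spib, Lmo4 and Gata3 lie to the right of the regulator of their family in both kinds of cells, while Tal1 lies to the left of Lyl1.

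Over the whole list of 27 family relatives and partners, 24 were tested, and 10 were called higher and 11 lower in DN3 than in all lung ILC2. Of these, Gata1 passed the filter only with DN3 in the fit. Irf4, a partner of PU.1, had the smallest p of this list and fell from 285 ± 89.1 to 1.70 ± 0.365 CPM (log2 fold change -7.34 ± 0.17, edgeR BH-adjusted p = 2.71e-20). Of 18 other genes of early thymic and multipotent progenitors, 13 were tested, 3 were called higher and 7 lower. The 3 higher ones, Hoxa7, Nfe2 and Gfi1b, passed the filter only with DN3 in the fit and so had to come out high. Hlf, a stem cell factor, was high in ILC2 and fell from 857 ± 72.1 to 0.332 ± 0.196 CPM, and Mycn fell from 41.7 ± 8.07 to 14.9 ± 1.52 CPM. Nfe2 rose from 1.34 ± 0.410 to 15.1 ± 2.15 CPM and Hoxa7, a homeobox gene of progenitors, from 0.0791 ± 0.172 to 10.5 ± 3.02 CPM. Of 17 genes of T lineage commitment, all 17 were tested, with 12 higher and 4 lower. Rag1 and Ptcra among the 12 passed the filter only with DN3 in the fit. The smallest p there belonged to Rag1, Tcf7 (36.6 ± 7.04 to 1874 ± 59.8 CPM), Cd3e and Lef1.

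The second comparison was within lung ILC2, between cells with and without the ZsGreen mark of past Cd3g expression, as ZsGreen-positive minus ZsGreen-negative. None of the 10 regulators was called by edgeR. Of the 7 that passed the filter on low counts, 0 were called, and 3 (Mef2c, Gata2 and Kit) had an unadjusted p under 0.05. Over the 13771 genes tested, 4.6% were called in either direction, 2.32% higher and 2.29% lower. DESeq2 also called 0 of the 7, and limma voom called 1, Mef2c. The groups overlapped for all 10 genes, while they did not overlap for 10.2% of all genes tested (5.2% higher and 4.98% lower). The median log2 fold change of the 7 was 0.63, beside -0.0062 over all genes.

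Mef2c came nearest to a call. From the library values above, its mean was 1.28 ± 0.674 CPM (SD, n = 5) without ZsGreen and 3.27 ± 0.839 CPM (SD, n = 3) with it. The log2 fold change was 1.43 ± 0.41 (SE; edgeR quasi-likelihood, BH-adjusted p = 0.0535, unadjusted p = 0.00258). Its adjusted p lay between 0.0156 and 1.000 over 22 alternatives, 5 of which called it: no scaling factor (edgeR, 0.0451), no filter (edgeR, 0.0262), limma voom (0.0213), no batch term (edgeR, 0.0476) and the fit without ZsGreen-negative library 3 (edgeR, 0.0156). Within the 2024 libraries alone the log2 fold change was 1.24 (edgeR BH-adjusted p = 0.299), and the 2025 batch holds 1 library of each group, with 1.03 and 3.63 CPM.

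Most endothelial markers were higher in the ZsGreen-positive group, as Mef2c was. Eng and Calcrl went the other way, from 9.52 to 7.37 and from 37.5 to 33.0 CPM per kilobase of exon. All 17 were tested, 5 were called higher in ZsGreen-positive ILC2 and 0 lower, with a median log2 fold change of 1.25. Among them Esam went from 2.78 ± 0.832 to 6.80 ± 0.481 CPM, Cldn5 from 5.62 ± 2.19 to 12.9 ± 2.24 CPM and Tie1 from 4.70 ± 2.79 to 12.8 ± 2.03 CPM. The 17 markers summed to 282 to 406 CPM without ZsGreen and 372 to 432 CPM in the libraries with it. Most of that sum is Calcrl, Pecam1 and Eng, so it says little about the lower markers. ZsGreen-negative library 3, which held the most Mef2c of its group, also held the most endothelial marker RNA of its group. With the mean endothelial marker level as a term in the fit, the log2 fold change of Mef2c was 0.25 ± 0.63 (edgeR BH-adjusted p = 1.000). That level overlapped between the groups only through ZsGreen-negative library 3 (3.59) and ZsGreen-positive library 1 (3.53). It thus leaves little to tell the groups apart by, and it also widened the SE of Bcl11b from 0.089 to 0.15. How much of the drop of Mef2c belongs to endothelial RNA was not tested.

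Gata2, Erg and Lmo2 are also endothelial or stem cell factors. Gata2 averaged 2.00 ± 1.19 CPM without ZsGreen and 3.39 ± 0.734 CPM with it, a log2 fold change of 0.88 ± 0.40 (edgeR BH-adjusted p = 0.252), and 4 of 5 ZsGreen-negative libraries lay below all ZsGreen-positive ones. Erg averaged 1.38 ± 0.653 and 2.39 ± 0.571 CPM (0.78 ± 0.44, edgeR BH-adjusted p = 0.405), and Lmo2 4.74 ± 1.45 and 5.36 ± 1.47 CPM (0.23 ± 0.29, edgeR BH-adjusted p = 0.794). With the endothelial term these became -0.20 ± 0.57 for Gata2, -0.25 ± 0.72 for Erg and -0.72 ± 0.41 for Lmo2. Of the 14 lung epithelial and stromal markers, 12 were tested and 1 was called higher, Cldn18 (5.91 to 16 CPM), with a median of 1.24, and they summed to 349 to 1067 CPM without ZsGreen and 944 to 2504 CPM in the libraries with it. With that list as a term Gata2 was at -0.049 ± 0.52, Erg at -0.040 ± 0.66 and Lmo2 at -0.57 ± 0.37. Its mean level, too, overlapped between the groups only through ZsGreen-negative library 3 (5.38) and ZsGreen-positive library 1 (5.12). Both terms thus nearly stand for the group, and the part of other cells' RNA in these shifts was not tested.

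**Figure D4:**
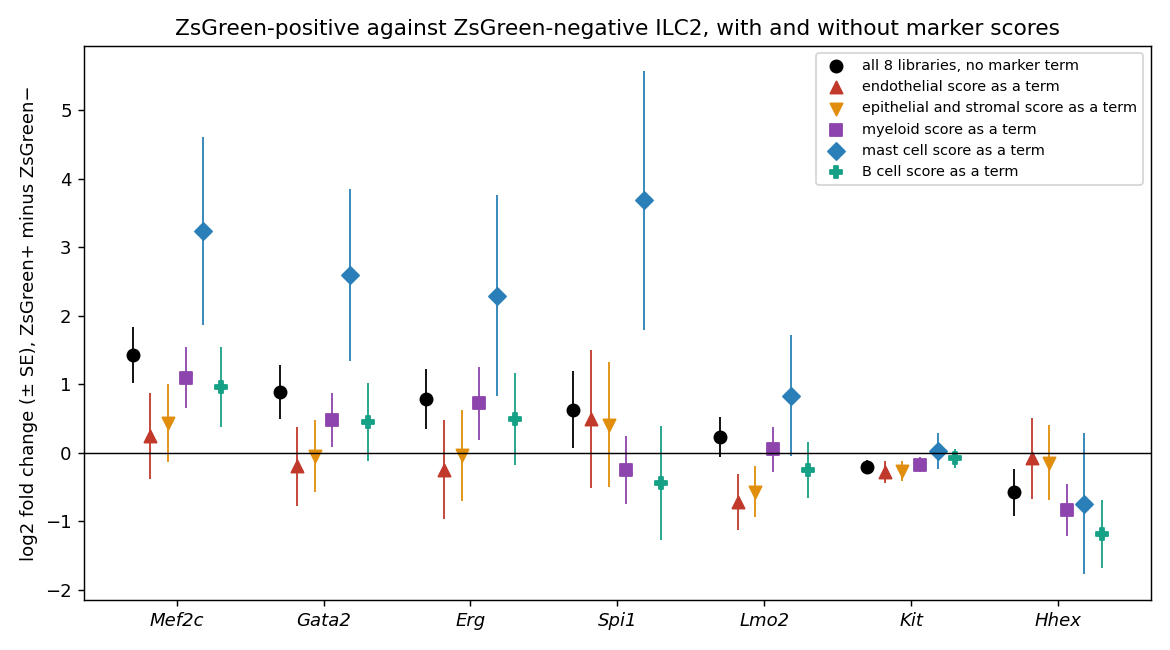
Log2 fold changes (vertical axis, ZsGreen-positive minus ZsGreen-negative ILC2, bars are ± SE) of the 7 tested genes in the fit of all 8 lung libraries (black) and with the mean level of 1 marker list as a further term (coloured). Mef2c goes from 1.43 to 0.25 with the endothelial term and to 0.44 with the epithelial and stromal term, and the mast cell term widens the error bars of all genes.

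Spi1 averaged 1.44 ± 1.12 CPM without ZsGreen and 2.17 ± 1.02 CPM with it, a log2 fold change of 0.63 ± 0.56 (edgeR BH-adjusted p = 0.676). Of the 24 myeloid markers, 14 were tested, 0 were called by edgeR (4 at an unadjusted p under 0.05) and the median was 0.64. They summed to 86.5 to 342 CPM without ZsGreen and 164 to 465 CPM in the libraries with it, and the myeloid term took Spi1 to -0.25 ± 0.50. With the mean level of the B cell markers as a term Spi1 was at -0.44 ± 0.83.

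Kit averaged 706 ± 71.6 CPM without ZsGreen and 611 ± 47.2 CPM with it. The log2 fold change was small, with a small error at this depth, -0.21 ± 0.10 (edgeR BH-adjusted p = 0.285, unadjusted p = 0.0472). Of the mast cell markers 4 were tested and 1, Cpa3, was called lower in ZsGreen-positive ILC2, at 209 ± 39.9 against 110.4 ± 20.3 CPM (-0.83 ± 0.09, edgeR BH-adjusted p = 2.01e-05). With the mean level of these 4 tested markers as a term Kit was at 0.023 ± 0.26. That level separated the lung groups completely, which leaves little to tell them apart by, and the errors of all 7 genes grew.

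Hhex averaged 4.51 ± 1.63 CPM without ZsGreen and 3.08 ± 1.06 CPM with it, a log2 fold change of -0.58 ± 0.34 (edgeR BH-adjusted p = 0.434) that was negative in all 22 alternatives and called in 0. Lyl1, Bcl11a and Flt3 were below the filter. Without a filter their log2 fold changes were 1.03 ± 0.60 for Lyl1 (edgeR BH-adjusted p = 0.558), -0.74 ± 0.63 for Bcl11a (edgeR BH-adjusted p = 0.720) and 1.25 ± 1.55 for Flt3 (edgeR BH-adjusted p = 0.771). Lyl1 averaged 0.593 ± 0.197 and 1.31 ± 0.768 CPM, and Bcl11a 1.05 ± 0.759 and 0.677 ± 0.463 CPM.

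Some relatives and other progenitor genes were called between the lung groups. Of 27 family relatives and partners 23 were tested, and 2 were called. Irf4 rose from 223 ± 28.4 to 388 ± 24.3 CPM (0.82 ± 0.10, edgeR BH-adjusted p = 4.60e-05), and Lmo4 fell from 545 ± 94.4 to 335 ± 36.4 CPM (log2 fold change -0.68 ± 0.12, edgeR BH-adjusted p = 0.00231). Of 18 other progenitor genes 10 were tested, 2 were called higher and 1 lower. These were Mecom, a stem cell factor (1.35 ± 0.783 to 5.03 ± 1.07 CPM, edgeR BH-adjusted p = 0.00365), Cd34 (3.77 ± 1.89 to 10.5 ± 2.20 CPM, edgeR BH-adjusted p = 0.00766) and Mycn (46.9 ± 2.88 to 33.0 ± 5.49 CPM, edgeR BH-adjusted p = 0.0102). Of 17 commitment genes 15 were tested, 2 were called higher (Cd3e and Thy1) and 2 lower (Hes1 and Lef1). Mecom and Cd34 are also endothelial genes, and with the endothelial term Mecom was at 1.00 ± 0.59 (edgeR BH-adjusted p = 0.864) and Cd34 at 0.36 ± 0.39 (edgeR BH-adjusted p = 0.987). Irf4 was at 0.66 ± 0.16 (edgeR BH-adjusted p = 0.103), Lmo4 at -0.79 ± 0.18 (edgeR BH-adjusted p = 0.0814) and Mycn at -0.37 ± 0.19 (edgeR BH-adjusted p = 0.777) with that term. None of the 5 was then called, and over all genes the term took the calls from 319 higher and 315 lower to 11 and 32. The endothelial level nearly separated the lung groups, and the part of endothelial RNA in the lost calls was not tested.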

How the data were processed

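Per the labels' protocols, PicoPure columns gave the RNA and a Watchmaker Genomics kit the mRNA libraries. The authors deposited whole-number counts per gene in 2 tables, of 8 lung and of all 11 libraries, whose shared columns were identical (0 differing). The submitters' processing notes name GRCm39 and DESeq2. Aligner, counting program, annotation and strand setting: not given in the sources used here. Totals ran from 4495260 to 17627469 counts per library. All 16 replicate pairs differed by more than sampling noise (chi-square divided by its degrees of freedom, 1.77 to 15.3).

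Groups and batches were taken from the labels. Counts were tested with edgeR 4.0.16 in R 4.3.3 (quasi-likelihood F test, TMM scaling, filterByExpr with a minimum count of 10, Benjamini-Hochberg, BH, adjustment over all genes tested, threshold 0.05). The lung fit used 8 libraries with batch as a term, and the DN3 fit all 11 without one, since DN3 is a batch of its own. The contrast with all lung ILC2 weights lung libraries equally. CPM are scaled by TMM over all 11 libraries. The edgeR fit was also run on simulated counts, with the same relative spread for all genes and no batch term. That run does not measure its errors for the low and variable genes here. Alternatives were other scalings, no filter, DESeq2 1.42.0, limma 3.58.1 voom, batch and replicate terms, each library left out, and marker list levels as a term. Such a level is the mean log2(CPM + 1) of the list genes that passed the lung filter. These were 17 endothelial, 14 myeloid, 12 epithelial and stromal, 6 B cell and 4 mast cell markers. Floors are 3 counts, and intervals cover counting error only, at 95%. Exon lengths are the union of exons in GENCODE M21 (GRCm38).

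The 10 genes and the other lists were chosen with earlier results of these data known. Named from a list were at most 4 tested genes of smallest p in the comparison described, marker genes at 0 counts in a group, and the relatives of each regulator. Marker genes near 0 counts in DN3, and Pecam1, Eng, Calcrl, Hdc, Mitf and Blk, were named after their values were seen, as was Il1rl1 for the label check. For the nearest patterns, the 3 genes of smallest root mean square distance over 8 lung libraries were taken among 9673 genes with a mean of at least 5 CPM there. The result of 1 marker gene is not reported here.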

Additional observations from a re-analysis of the deposited data

Results flagged for a closer look

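In 2 of the 10 groups of 5 libraries examined, 1 for each gene, the ZsGreen-negative library farthest from the others lay beyond Dixon's 95% limit of 0.71 on its gap over the range. Chance gives this in about 1 in 20 groups. Both were library 3. Lyl1 was lowest there, at 0.243 CPM or 1 count (gap over range 0.887), and Gata2 was highest, at 4.13 CPM or 17 counts (gap over range 0.917). That library had the fewest counts of all, 4495260, and, in its group, the highest summed endothelial (406 CPM), myeloid (342 CPM) and epithelial and stromal (1067 CPM) marker levels. The part of these in its Gata2 and Lyl1 values was not tested.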

How the results depend on the processing

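Of the 154 lung values recomputed for single genes, 135 kept direction and side of the threshold, as did 169 of 171 for DN3 against ZsGreen-negative, 159 of 171 against ZsGreen-positive and 171 of 171 against all lung ILC2. The number of regulators called higher in the lung comparison, 0, became 1 (Mef2c) with no scaling factor, no filter, limma voom or no batch term, and 0 to 1 with each library left out; the cause was not tested. Lmo2 changed sign in the lung comparison in the 2024 libraries alone (-0.095), with a replicate block (-0.063), without ZsGreen-negative library 5 or ZsGreen-positive library 3 (-0.095 to 0.46 with each library left out), and with the endothelial (-0.72), B cell (-0.25) or epithelial (-0.57) term. Other sign changes there were Spi1 with the myeloid (-0.25) or B cell term (-0.44), Kit with the mast cell term (0.023), Erg with the endothelial (-0.25) or epithelial term (-0.040), and Gata2 with the endothelial (-0.20) or epithelial term (-0.049). Against ZsGreen-positive ILC2, Spi1 in DN3 changed sign without ZsGreen-positive library 1 or DN3 library 1 (-0.25 to 0.29 with each library left out). Against ZsGreen-negative ILC2, Spi1 was called higher with no scaling factor (edgeR BH-adjusted p = 0.0441) or without ZsGreen-negative library 4 (0.0401). Over all genes, the 319 called higher and 315 called lower in the lung comparison ranged from 11 to 621 and from 8 to 460, lowest with a marker term. Same-numbered libraries did not deviate together (correlation -0.16 to 0.08 over 3 lung pairs), so the numbers do not pair them. The highest lung correlations were of ZsGreen-negative library 3 with ZsGreen-positive library 2 (0.23), 2 with 1 (0.19) and 5 with 3 (0.17). In header order, ZsGreen-negative libraries are followed by a ZsGreen-positive one, and each of these pairs lies in 1 such run. The labels do not say whether such runs pair the libraries. No fit blocked on them, and the lung tests take the libraries as unpaired, so an effect of such pairing was not tested. The replicate block joins libraries by number, those numbered 3 across batch dates. With it 130 genes were called higher and 109 lower in the lung comparison. The counts of regulators called stayed at 0 and 0 there and at 4 and 4 against DN3. Genes at a few counts per library, Flt3, Gata2 and Lmo2 in DN3 among them, are limited by depth.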

Other observations

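For each regulator tested in the lung comparison, the genes of nearest pattern over the 8 lung libraries were listed, as a description of libraries that share batches and other cells' RNA. The measure is the root mean square distance between standardised log2(CPM + 1) values. Ace (0.12), Lamb2 (0.20) and Tspan7 (0.21) lay nearest to Mef2c. Actn1 (0.17), Plxnb2 (0.28) and Tgfbi (0.28) lay nearest to Gata2, and Sdc3 (0.20), Clcn6 (0.26) and Ube2d1 (0.36) to Spi1. Kit lay nearest to Nolc1 (0.24), Prpf4b (0.28) and Tia1 (0.28), and Hhex to Pop5 (0.30), Llph (0.34) and Melk (0.37). Erg lay nearest to Camk2g (0.29), Katnip (0.31) and Col5a1 (0.33), and Lmo2 to Pam (0.34), Top3a (0.36) and Fnbp1l (0.41), with larger distances than that of Mef2c to its nearest gene.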
